A study of Mus musculus with 12 samples.

Results

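The genes described here are 8 Kruppel-like factors (Klf1, Klf2, Klf3, Klf4, Klf6, Klf7, Klf10 and Klf13), found by symbol among the 24107 mouse genes of the deposited expression table. They were measured by RNA-seq in 12 libraries of C57BL/6 bone marrow cells, in 4 groups of 3. Ctrl-MEP were wild-type megakaryocyte-erythroid progenitors (MEP), which give rise to platelets and to red cells, and Ctrl-Bulk was unselected whole marrow of wild-type mice. L-MEP were leukemic MEP of Prdm16s genotype, and Prdm16s-Bulk was the GFP+ fraction of Prdm16s marrow, both taken from leukemic recipient mice. The labels give no age and do not say how Prdm16s was introduced, so the Prdm16s genotype, the leukemia and being a recipient cannot be told apart. Sex-linked genes also differed between the control libraries and part of the Prdm16s libraries, as given below. In marrow the GFP gate was applied to the Prdm16s cells alone. Whether the 3 libraries of each group were taken from different mice is not stated. Within both Prdm16s groups the sex-linked genes differed, so these libraries do not all hold cells of the same sex. The p-values measure only the scatter among these libraries, which may be technical where libraries share a mouse.

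Kruppel-like factors (KLF) are transcription factors that bind GC-rich and CACCC sequences through zinc fingers at the end of the protein. They differ in the part outside the fingers, which recruits coactivators such as CBP and p300 or corepressors such as CtBP and Sin3. Klf1 drives the globin, haem and membrane genes of red cells, and Klf3, itself a Klf1 target, represses from the same CACCC boxes. Klf2 and Klf4 hold lymphocytes and endothelium in a resting state and are induced through the kinase ERK5 and MEF2 factors, and Klf4 is also a factor of monocytes. Klf6 is an early response gene of many cell types and a regulator of macrophages, Klf7 is known from neurons and from progenitor cells, and Klf10 and Klf13 are repressors that recruit Sin3.

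The stretches before the transcription start of Klf1, Klf2 and Klf7 are shown first, because Klf1 and Klf7 were called in both MEP and marrow and Klf2 holds the single MEF2 match among these genes. Each was taken from the 250 bases before the RefSeq start (GRCm38.p6) and ends before the first annotated exon base. Capitals mark a match: CACCC or its complement GGGTG for KLF factors, GATAA or its complement TTATC for GATA factors, and the palindrome CTANNNNTAG for MEF2 factors. The Klf1 stretch is chr8:84901732-84901927 on the plus strand, that of Klf2 is chr8:72318812-72319032 on the plus strand, and that of Klf7 is chr1:64121492-64121639 on the minus strand.
Klf1: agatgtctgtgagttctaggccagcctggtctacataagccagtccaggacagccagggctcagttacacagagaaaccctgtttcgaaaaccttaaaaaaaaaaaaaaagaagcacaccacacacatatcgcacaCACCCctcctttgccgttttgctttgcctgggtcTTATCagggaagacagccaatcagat
Klf2: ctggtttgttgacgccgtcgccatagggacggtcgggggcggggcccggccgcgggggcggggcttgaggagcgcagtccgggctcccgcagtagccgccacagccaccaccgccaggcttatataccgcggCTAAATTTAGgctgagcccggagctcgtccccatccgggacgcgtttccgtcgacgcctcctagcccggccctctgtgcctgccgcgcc
Klf7: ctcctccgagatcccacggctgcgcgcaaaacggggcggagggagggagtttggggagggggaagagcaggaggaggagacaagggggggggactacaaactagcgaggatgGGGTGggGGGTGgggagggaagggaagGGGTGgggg

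In the Klf1 stretch the GATA match begins 80 bases before the start and a CACCC 114 bases before it. The MEF2 match of Klf2 begins 118 bases before its start, and 1 more CACCC lies 19 bases before it, beyond the printed part. Klf7 has 3 CACCC matches 111 to 138 bases before this start, which lies inside the annotated span of the gene. Windows of 7 of the 8 genes were at hand, and Klf10 was not among them. Klf3 has 5 CACCC matches in a window that is annotated as exon throughout, Klf13 has 1, and no match to any of the motifs was found for Klf4 and Klf6. None of the 7 windows holds GGAAGT or its complement, letters that ETS factors bind. Of 32851 windows of the same length before mouse genes, 52.0% hold CACCC, 22.6% GATAA, 19.7% GGAAGT and 3.2% CTANNNNTAG, on either strand, so a CACCC match is common. No 2 matches overlap in these windows. These are matches of letters, and no binding was measured.

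**Figure D1:**
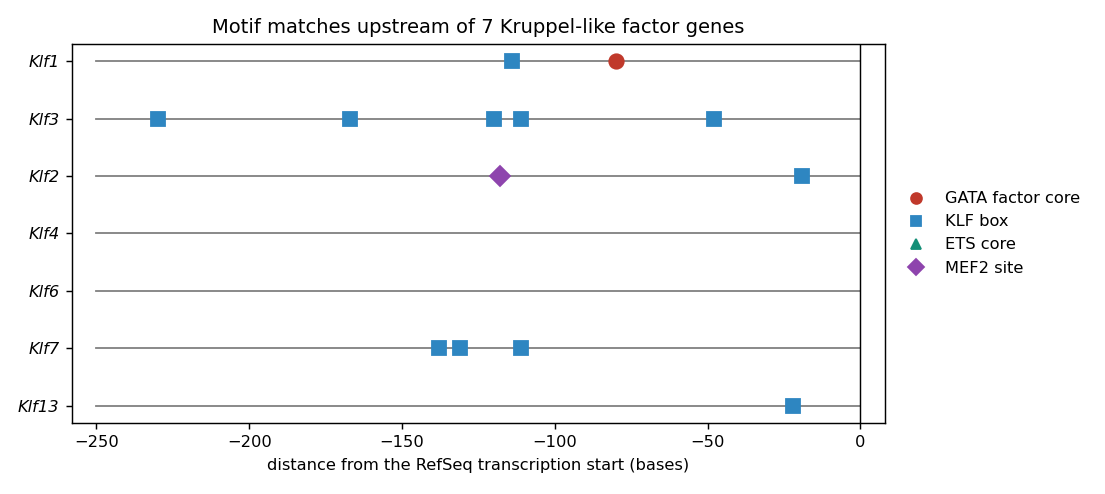
Motif matches in the 250 bases upstream of the RefSeq start of 7 Kruppel-like factor genes (x axis, distance in bases; 1 line a gene). Klf1 carries the single GATA match and Klf2 the single MEF2 match, while Klf3 and Klf7 carry 5 and 3 CACCC matches; no ETS match was found.

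L-MEP 3 held 0.572 M recovered reads, Prdm16s-Bulk 2 held 1.15 M, and the other 10 libraries held 6.72 to 9.71 M. Prdm16 itself was read at 0.363 to 0.957 FPKM in the 6 control libraries and 6.35 to 15.3 FPKM in the 6 Prdm16s libraries. L-MEP 3 stood apart from its group: its Pearson r was 0.806 and 0.794 with L-MEP 1 and 2, which had 0.966 between them, and 0.871 to 0.904 with the Prdm16s-Bulk libraries. The granulocyte peroxidase gene Mpo read 167, 150 and 7900 FPKM in L-MEP 1, 2 and 3, beside 5570 to 9220 in the 6 marrow libraries. Xist, a gene of female cells, was at 39.2 to 57.1 FPKM in replicates 1 and 2 of both Prdm16s groups. It was at 0.0904 or less in the other 8 libraries, L-MEP 3 and Prdm16s-Bulk 3 included. Y-linked Ddx3y was at 0.392 FPKM or less in the former and at 10.3 to 27.6 in the latter. All 6 control libraries thus read as male, and replicates 1 and 2 of both Prdm16s groups as female. The part of sex in the differences was not tested. Because L-MEP 3 stood apart, the MEP differences of the 8 genes and the list counts are given with and without it. Without L-MEP 3 the MEP comparison sets female against male libraries.

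All 8 genes passed the filter for testing (at least 1 FPKM in at least 3 libraries). In L-MEP against Ctrl-MEP 4 of the 8 were called, Klf6 and Klf7 higher and Klf1 and Klf3 lower, where 26.0% of the 11462 genes tested were called. In Prdm16s-Bulk against Ctrl-Bulk 2 were called, Klf1 and Klf7, both lower, where 9.05% of all genes were called. A change in MEP that differed from that in marrow was called for Klf6 and Klf7, where 4.89% of all genes were called. The median difference of the 8 genes on the log2(FPKM + 1) scale was 0.96 in MEP, beside 0.02 for all genes tested, and -0.06 in marrow, beside -0.05. Groups did not overlap for 5 of the 8 genes in MEP, where 40.8% of all genes had no overlap, and for 4 of the 8 in marrow, where the share was 37.2%. Each fold change below is a difference of log2(FPKM + 1) ± SE, which understates the change of low genes, and each adjusted p is from limma with Benjamini-Hochberg adjustment over all genes tested.

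**Figure D2:**
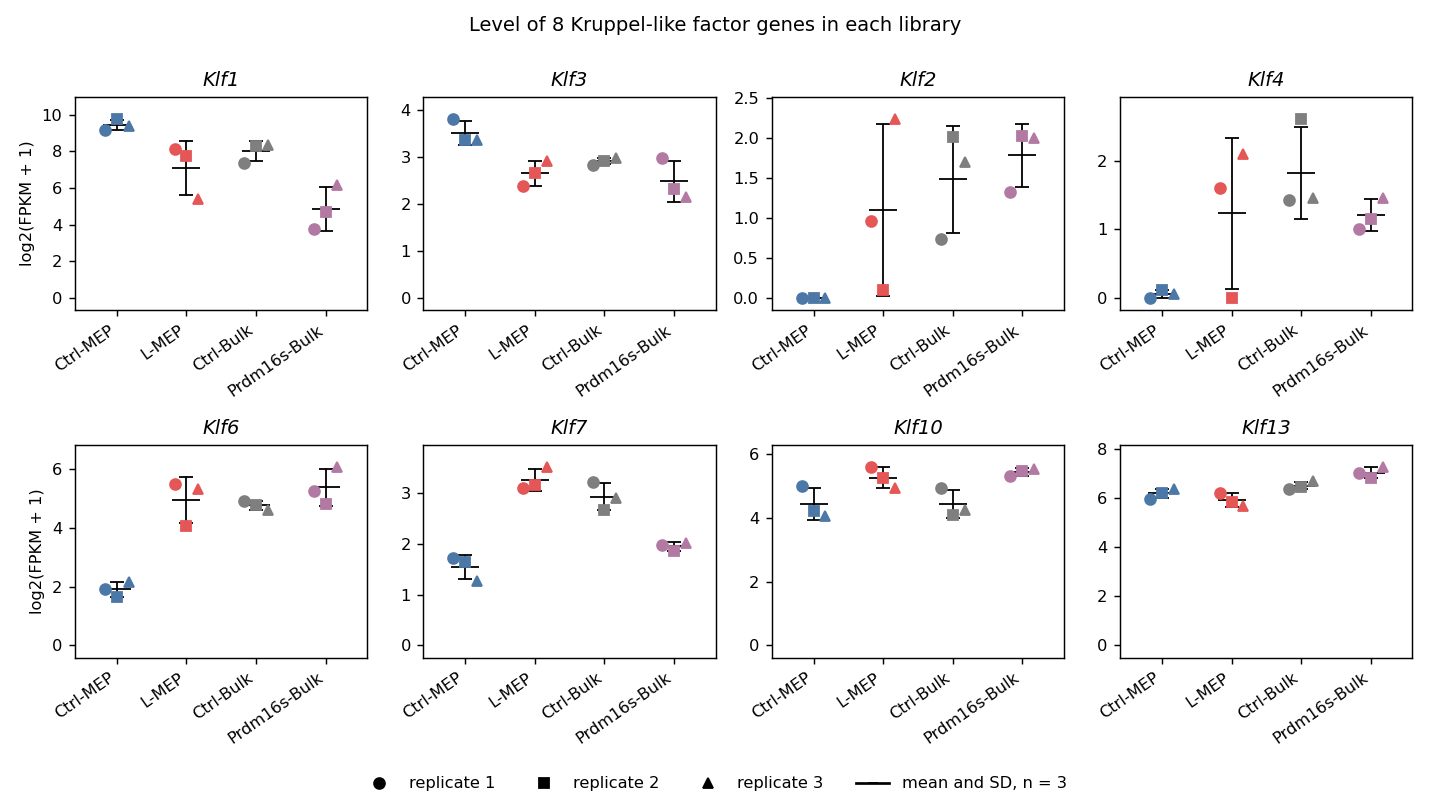
Level of the 8 genes in each library as log2(FPKM + 1), with 1 panel a gene; symbols are the replicates of the 4 groups, and the lines are the mean and SD of 3 libraries. Klf6 and Klf7 stand low in Ctrl-MEP, Klf1 stands low in Prdm16s-Bulk, and Klf1 of L-MEP 3 lies below that of L-MEP 1 and 2.

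**Figure D3:**
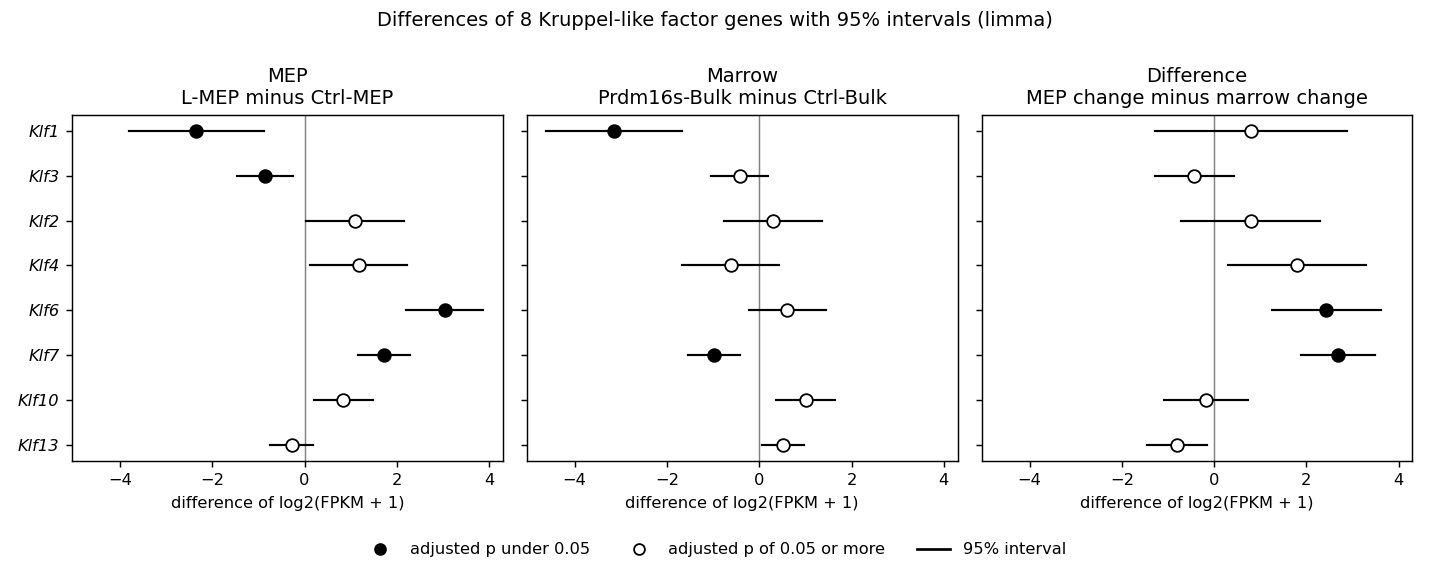
Differences of log2(FPKM + 1) with 95% intervals for the 8 genes in MEP, in marrow and between the 2 changes; filled circles have an adjusted p under 0.05. Klf7 lies to the right of 0 in MEP and to the left in marrow, and Klf1 lies to the left in both.

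Klf1 (chromosome 8, 84901982 to 84905291), the red cell factor, had the highest mean FPKM of the 8 genes in Ctrl-MEP, L-MEP and Ctrl-Bulk, although Klf13 exceeded it in L-MEP 3. Its level was 585, 852 and 660 FPKM in the Ctrl-MEP libraries and 278, 213 and 41.5 in L-MEP. In Ctrl-Bulk it was at 167, 309 and 329 FPKM, and in Prdm16s-Bulk at 12.6, 24.8 and 69.9. Every Prdm16s library thus lay below every control library of its own population, and within L-MEP the third library was far below the others. Klf1 fell in MEP, by 2.34 ± 0.68 with adjusted p = 0.0236. In marrow its difference was -3.14 ± 0.68 (adjusted p = 0.0123), and a difference between the 2 changes was not called (0.80 ± 0.96, 95% interval -1.28 to 2.88, adjusted p = 0.722). Without L-MEP 3 the MEP difference was -1.50 with adjusted p = 0.0517, and without any 1 of the Ctrl-MEP libraries it was -2.46 to -2.19 with adjusted p = 0.0513 to 0.0774. With array weights, which give less weight to libraries that scatter, the difference between the changes was called (2.60, adjusted p = 0.000611). In marrow the call was lost without Ctrl-Bulk 2 or Ctrl-Bulk 3 (adjusted p = 0.0634 and 0.0654).

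Most markers of red cell precursors were, like Klf1, lower in both Prdm16s groups than in their controls. Of the 8 markers in the fixed list, 6 were called lower in MEP and 8 in marrow, where 12.3% and 6.03% of all genes were called lower, and the counts were equal without L-MEP 3. Their summed level was 487.5 to 530 FPKM in Ctrl-MEP and 112, 164 and 30.6 in L-MEP 1, 2 and 3. It was 367 to 375.5 in Ctrl-Bulk and 9.55 to 41.4 in Prdm16s-Bulk. Slc4a1, the anion exchanger of the mature red cell, was at 0 in Ctrl-MEP 1, L-MEP 2, L-MEP 3 and Prdm16s-Bulk 2. Epb42 was at 0 in L-MEP 3 and Prdm16s-Bulk 2 and 3, and Trim10 in Prdm16s-Bulk 2 and 3. In bulk libraries such as these, fewer red cell precursors and less Klf1 RNA per cell cannot be told apart, and the part of the markers in the Klf1 result was not tested.

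Klf1 acts beside Gata1, and its level was set against Gata1 within each library. The Klf1 to Gata1 ratio of FPKM was 1.94, 2.55 and 2.28 in Ctrl-MEP and 1.15, 1.02 and 1.10 in L-MEP, so the ratio was close among the L-MEP libraries while both genes were low in L-MEP 3. It was 1.64, 2.22 and 2.55 in Ctrl-Bulk and 0.626, 1.01 and 1.79 in Prdm16s-Bulk, where the ranges overlap. Gata1 was at 309 mean FPKM in Ctrl-MEP and 163 in L-MEP, and its difference did not pass the test in MEP (-1.30 ± 0.54, adjusted p = 0.0982; -0.45 without L-MEP 3, adjusted p = 0.217), but Gata1 fell in marrow by 2.15 ± 0.54 (adjusted p = 0.0277).

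Fli1, an ETS factor of megakaryocytes that is known to oppose Klf1 in the choice between platelet and red cell fate, went the other way. It was at 3.52, 4.66 and 2.55 FPKM in Ctrl-MEP and 103, 99.5 and 55.9 in L-MEP, a rise of 4.22 ± 0.28 (adjusted p = 2.01e-06). The Klf1 to Fli1 ratio was 166 to 259 in Ctrl-MEP, 2.71, 2.14 and 0.742 in L-MEP, 3.17 to 9.37 in Ctrl-Bulk and 0.178 to 0.787 in Prdm16s-Bulk. L-MEP 1 and 2 lay below all Ctrl-Bulk libraries in this ratio and above all Prdm16s-Bulk libraries, and L-MEP 3 lay within the Prdm16s-Bulk range. Of the 9 factors listed as sharing genes with Klf1, 2 rose in MEP (Fli1 and Nfe2, at 1.73 ± 0.28) and none was called lower, where 13.7% of all genes were called higher and 12.3% lower. Their median difference was -0.06, beside 0.02 for all genes. Without L-MEP 3, 4 were called higher and 1 lower. In marrow Nfe2 and Fli1 rose, by 1.1 and 1.01, and Gata1 and Tal1 fell, with differences of -2.15 and -1.79, where 3.02% of all genes were called higher and 6.03% lower. The median in marrow was 0.13, beside -0.05 for all genes. With the libraries rescaled to equal totals Nfe2 and Fli1 were no longer called in marrow (adjusted p = 0.0930 and 0.159). Of 7 tested megakaryocyte and platelet markers 6 were also called higher in MEP, where 13.7% of all genes were, and without L-MEP 3 all 7 were. Their summed level was 15.6 to 126 FPKM in Ctrl-MEP, 5604 and 4619 in L-MEP 1 and 2, and 289 in L-MEP 3, with Gp6 at 0 in all 3 L-MEP libraries. The part of these markers in the Fli1 values was not tested.

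**Figure D4:**
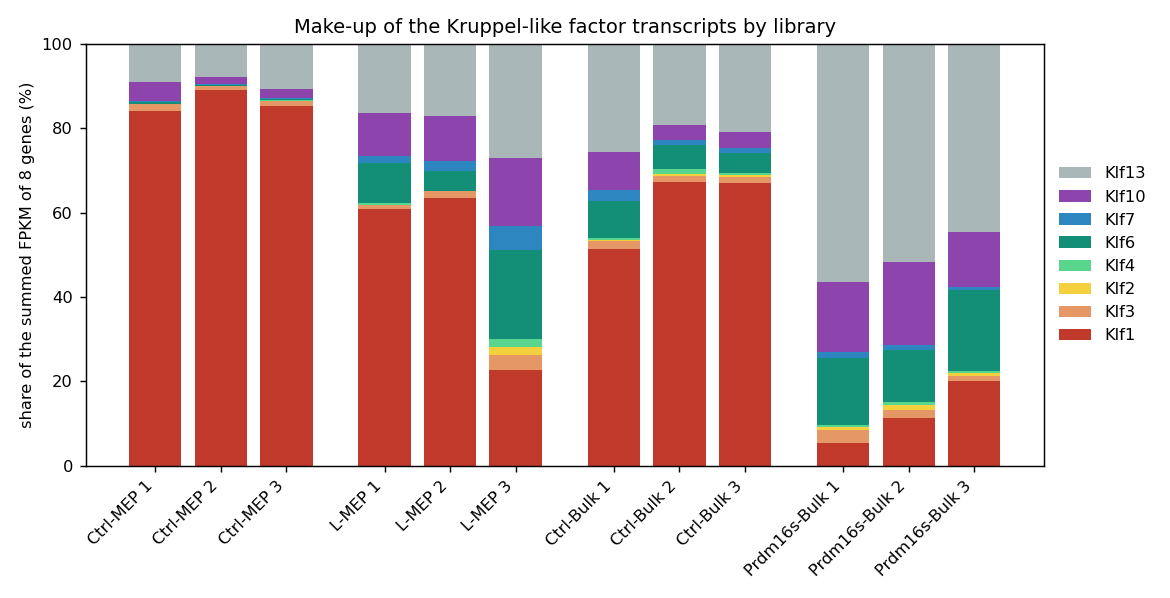
Share of each gene in the summed FPKM of the 8 Kruppel-like factors (y axis, percent), with 1 bar for each of the 12 libraries. Klf1 makes up 84.0 to 89.0% in Ctrl-MEP and 5.51 to 20.2% in Prdm16s-Bulk, where Klf13 takes 44.6 to 56.4%.

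FPKM is per length and can be added, so the share of each gene in the sum of the 8 genes was taken. Klf1 held 84.0 to 89.0% of their summed FPKM in Ctrl-MEP, 60.8, 63.5 and 22.7% in L-MEP, 51.4 to 67.2% in Ctrl-Bulk and 5.51 to 20.2% in Prdm16s-Bulk. Klf13 held 7.71 to 10.7% in Ctrl-MEP, 16.2 to 27.2% in L-MEP, 19.2 to 25.7% in Ctrl-Bulk and 44.6 to 56.4% in Prdm16s-Bulk. The summed level itself was 696 to 957 FPKM in Ctrl-MEP, 183 to 457 in L-MEP, 325 to 490 in Ctrl-Bulk and 218 to 346 in Prdm16s-Bulk. The Klf1 share of L-MEP 3 rests on 38 Klf1 reads. A share can move because another gene of the sum moves, and no test was made on it.

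Red cell genes known as Klf1 targets, a list of 25 of which 22 are in the table and 21 were tested, did not all follow Klf1. In MEP 10 of the 21 fell and 4 rose, where 12.3% of all genes were called lower and 13.7% higher; the median was -0.82, beside 0.02 for all genes. Add2, the beta adducin of the membrane skeleton, fell by 3.46 ± 0.34 (adjusted p = 2.36e-05), Kel, the Kell blood group protein, by 2.66 ± 0.29 (adjusted p = 5.11e-05) and Fech, the last enzyme of haem synthesis, by 2.41 ± 0.32 (adjusted p = 0.000214). Kel was at 82.4, 70.8 and 70.6 FPKM in Ctrl-MEP and 13.7, 13 and 7.32 in L-MEP, with no overlap. Cdkn2c, a cell cycle inhibitor, rose by 3.0 ± 0.44 (adjusted p = 0.000435), and Xpo7, a nuclear exporter of red cell precursors, by 1.31 ± 0.31 (adjusted p = 0.00901). Hbb-bs, an adult beta globin gene, was at 8.39, 66.2 and 13.1 FPKM in Ctrl-MEP and 815, 1362 and 47.1 in L-MEP, and it rose by 4.18 ± 1.1 (adjusted p = 0.0127). Its L-MEP 3 value lies within the Ctrl-MEP range, so the groups overlap. Reads of Hbb-bs can be shared with the near-identical Hbb-bt, so the Hbb-bs level is uncertain. The listed genes with no entry under their symbol were Hbb-bt, Hba-a1 and Ahsp. Without L-MEP 3 the counts were 10 lower and 3 higher.

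In marrow 15 of the 21 fell and 1, Cdkn2c, rose, where 6.03% of all genes were called lower and 3.02% higher; the median was -1.92, beside -0.05 for all genes. Alas2, the first enzyme of haem synthesis in red cells, was at 52.2, 53.9 and 48.2 FPKM in Ctrl-Bulk and 1, 1.40 and 1.31 in Prdm16s-Bulk, a fall of 4.55 ± 0.29 (adjusted p = 3.15e-06). Slc4a1 fell by 4.02 ± 0.27 (adjusted p = 3.75e-06) and Kel by 3.89 ± 0.29 (adjusted p = 9.15e-06). The groups did not overlap for Alas2. In MEP, where Alas2 was at 1.19 to 2.38 FPKM in Ctrl-MEP and 0.454 to 1.69 in L-MEP, its difference was -0.46 ± 0.29 and not called (adjusted p = 0.264). A change in MEP above that in marrow was called for 4 of the 21, Hbb-bs, Alas2, Slc4a1 and E2f2, where 4.52% of all genes were called in that direction. Slc4a1 was at 0, 0.296 and 0.0614 FPKM in Ctrl-MEP. On this scale Slc4a1 thus had almost no room to fall in MEP, and Alas2 had little. Without L-MEP 3 the counts in marrow were 18 lower and 1 higher. The red cell marker list shares Alas2, Slc4a1, Epb42 and Kel with this list.

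**Figure D5:**
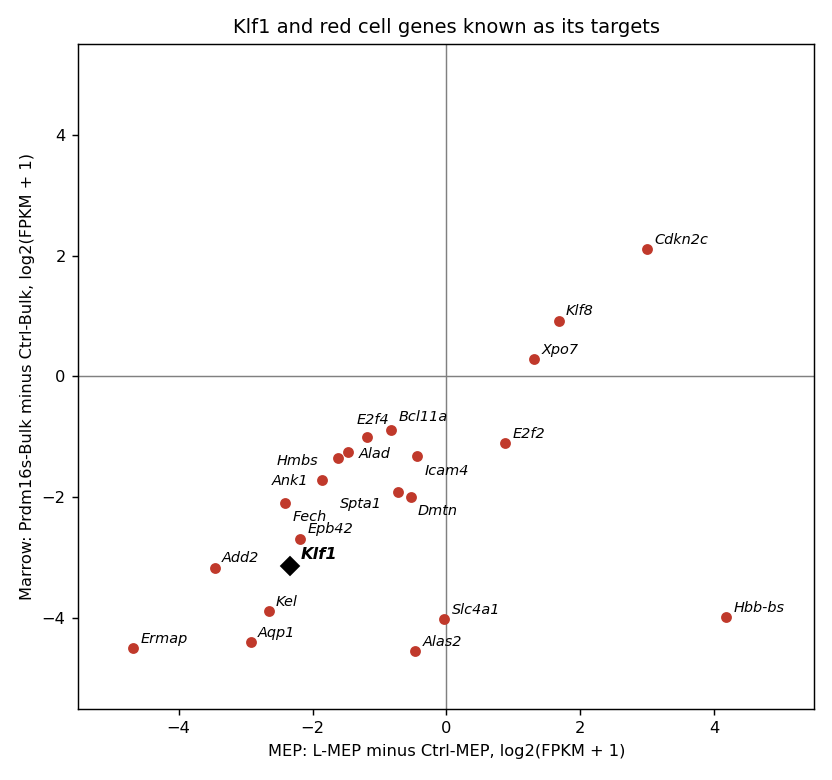
Difference in MEP (x axis) against difference in marrow (y axis), both on the log2(FPKM + 1) scale, for Klf1 (diamond) and 21 red cell genes known as its targets (circles). Most lie in the lower left with Klf1, Alas2 and Slc4a1 lie low near 0 in MEP, Hbb-bs lies at 4.18 in MEP and -3.98 in marrow, and Cdkn2c lies at the upper right.

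Klf3 (chromosome 5, 64803521 to 64832901), the repressor that binds the CACCC boxes of red cell genes, was at 12.9, 9.25 and 9.25 FPKM in Ctrl-MEP and 4.22, 5.30 and 6.50 in L-MEP. The groups did not overlap. It fell by 0.86 ± 0.28 in MEP (adjusted p = 0.0414), and without L-MEP 3 by 0.98 (adjusted p = 0.0251). The call lies near the threshold: it was lost in 12 of 20 alternative fits, among them those without any 1 of the Ctrl-MEP or Ctrl-Bulk libraries or L-MEP 1 or 2 (adjusted p = 0.0592 to 0.134). In marrow it was at 6.16, 6.54 and 6.81 FPKM in Ctrl-Bulk and 6.87, 3.96 and 3.44 in Prdm16s-Bulk, ranges that overlap (-0.43 ± 0.28, adjusted p = 0.387). An annotated transcript on the other strand, Gm20033, overlaps Klf3 exons. The library kit named in the labels does not mark strand, so reads of the 2 cannot be told apart.

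Klf3 represses through CtBP, and 15 cofactors and ubiquitin ligases of Kruppel-like factors were read. Ctbp2 rose in MEP by 1.71 ± 0.33 (adjusted p = 0.00268), from a mean of 1.15 to 6.48 FPKM, and Fhl3, a coactivator or corepressor that binds Klf3, rose by 1.45 ± 0.43 (adjusted p = 0.0269). These 2 of 15 stand beside 13.7% of all genes called higher in MEP, a share near that of the list. No other member of the list was called in MEP and none in marrow; the medians of the list were 0.07 and -0.09, beside 0.02 and -0.05 for all genes. Ctbp1 was at 32.2 mean FPKM in Ctrl-MEP and 28.9 in L-MEP (-0.14 ± 0.30, adjusted p = 0.776), so Ctbp1 was the more abundant of the pair in both groups. Sin3a, the corepressor of Klf10 and Klf13, was at 13.5 and 13.3. Without L-MEP 3, Fhl3 was not called in MEP (1.01, adjusted p = 0.0710) and the ligase gene Wwp1 was called lower in marrow (-1.25, adjusted p = 0.0271).

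Klf2 (chromosome 8, 72319062 to 72321654), the factor of resting lymphocytes and endothelium, had no read in any Ctrl-MEP library, where 3 reads would be 0.177, 0.222 and 0.231 FPKM. It was at 0.94, 0.0674 and 3.69 FPKM in L-MEP, from 19, 1 and 4 reads. In Ctrl-Bulk it was at 0.664, 3.03 and 2.24 FPKM and in Prdm16s-Bulk at 1.52, 3.06 and 2.99. L-MEP 2 lies below the level of 3 reads, and the 3.69 of L-MEP 3 rests on 4 reads. The difference was not called in MEP (adjusted p = 0.121), nor in marrow (0.30 ± 0.49, adjusted p = 0.760). With a pseudocount of 0.1 in place of 1, and by voom on the recovered reads, Klf2 was called higher in MEP (adjusted p = 0.0353 and 0.0489), and without L-MEP 3 its adjusted p was 0.373.

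Klf4 (chromosome 4, 55527137 to 55532475), the factor of monocytes, was likewise near 0 in Ctrl-MEP, at 0, 0.0884 and 0.0459 FPKM, from 0 to 2 reads. It was at 2.04, 0 and 3.30 FPKM in L-MEP, from 69, 0 and 6 reads, so the groups overlap and L-MEP 2 held no read. It was not called in MEP (1.17 ± 0.48, adjusted p = 0.0954), and without L-MEP 2 it was called higher (1.79, adjusted p = 0.00612). Without L-MEP 3 its difference was 0.74 (adjusted p = 0.267) and without L-MEP 1 it was 0.99 (adjusted p = 0.210). In marrow it was at 1.67, 5.07 and 1.75 FPKM in Ctrl-Bulk and 1.01, 1.22 and 1.74 in Prdm16s-Bulk, without a call (-0.62 ± 0.48, adjusted p = 0.471).

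Markers of the cell types that use Klf2 and Klf4 were read in each group. Markers of monocytes and macrophages summed to 3.65 to 12.3 FPKM in Ctrl-MEP, 12.3 and 14.0 in L-MEP 2 and 1, 1274 in L-MEP 3, 1798 to 1885 in Ctrl-Bulk and 421 to 818 in Prdm16s-Bulk. Of these 9 markers 1 was called higher in MEP, a share near the 13.7% of all genes called higher there. In marrow 5 were called lower, where 6.03% of all genes were. Cd14 was at 0 in L-MEP 1 and 2. Without L-MEP 3 the count was again 1 in MEP.

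Markers of endothelium and lymphocytes were read as well. Of 5 endothelial markers 2, Tek and Esam, passed the filter, and both were called higher in MEP, with all libraries and without L-MEP 3, where 13.7% of all genes were called higher. Tek was at 0.320, 0.229 and 0.416 FPKM in Ctrl-MEP and 4.87, 21.6 and 2.49 in L-MEP. The sum of the 5 was 0.39 to 1.16 FPKM in Ctrl-MEP, 10.6, 25.0 and 6.87 in L-MEP, 6.78 to 9.53 in Ctrl-Bulk and 0.0633 to 2.86 in Prdm16s-Bulk, while Cdh5 and Kdr were at 0 in all L-MEP and Prdm16s-Bulk libraries. Of 5 tested T and NK cell markers 1 was called higher in MEP, Nkg7, at 16.2, 88.3 and 26.6 FPKM in Ctrl-MEP and 538, 381 and 593 in L-MEP. Nkg7 made up nearly all of that list's sum, which was 17.3 to 88.5 FPKM in Ctrl-MEP and 539, 381 and 613 in L-MEP. Cd3d, Cd2 and Gzma were above 0 in L-MEP 3, and Cd3g and Cd8a were at 0 in all MEP libraries of both groups. Of 6 tested B cell markers 1 was called higher in MEP, Cd79b, at 0.959, 2.51 and 1.93 FPKM in Ctrl-MEP and 76.0, 28.7 and 31.3 in L-MEP, and the B cell sum was 2.07 to 4.79 and then 77.8, 30.2 and 39.3. Pax5 was at 0 in all MEP libraries. The part of monocytes, endothelium and lymphocytes in the Klf2 and Klf4 levels was not tested.

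Genes of the ERK5-MEF2 arm, which induces Klf2 and Klf4, were called higher in MEP for 4 of 7 tested members and lower for none, where 13.7% of all genes were called higher. The median was 0.93, beside 0.02 for all genes. Mef2c, a MEF2 factor of megakaryocytes and lymphoid cells, was at 3.30, 3.41 and 1.71 FPKM in Ctrl-MEP and 61.4, 70.7 and 15.4 in L-MEP, and it rose by 3.50 ± 0.53 (adjusted p = 0.000573). Map2k5, the kinase that activates ERK5, rose by 1.25 ± 0.27 (adjusted p = 0.00553), and the kinases above it, Map3k3 and Map3k2, rose by 1.78 ± 0.48 and 0.93 ± 0.31 (adjusted p = 0.0164 and 0.0446). Mapk7, which encodes ERK5, was at 3.28 mean FPKM in Ctrl-MEP and 4.79 in L-MEP without a call (0.29 ± 0.44, adjusted p = 0.667). By limma none of the 7 was called in marrow, where the median was 0.17 beside -0.05 for all genes and Mef2c was at 11.3 to 15.6 FPKM in Ctrl-Bulk and 7.40 to 22.9 in Prdm16s-Bulk. Without L-MEP 3 Map3k2 was not called in MEP (0.72, adjusted p = 0.108), and with quantile normalization it was not called in MEP (0.43, adjusted p = 0.346) but called higher in marrow (1.14, adjusted p = 0.0386). The megakaryocyte and platelet markers, 6 of 7 of them called higher in MEP as given above, summed to 15.6 to 126 FPKM in Ctrl-MEP and 5604, 4619 and 289 in L-MEP, and their part in these values was not tested.

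Of genes known as Klf2 targets in lymphocytes and vessels, Itgb7, an integrin chain, rose in MEP by 1.57 ± 0.31 (adjusted p = 0.00323), from a mean of 7.31 to 24.2 FPKM with no overlap. S1pr1, the exit receptor of lymphocytes, was at 1.31 mean FPKM in Ctrl-MEP and 2.78 in L-MEP (0.62 ± 0.32, adjusted p = 0.177), and without L-MEP 3 it was called higher (0.99, adjusted p = 0.0125). In marrow Ccr7, a chemokine receptor of lymphocytes, fell by 1.32 ± 0.29 (adjusted p = 0.0137). S1pr1 was not called in marrow (-1.03 ± 0.32, adjusted p = 0.0701), and without L-MEP 3, whose values enter the shared estimate of the spread, it was called lower there (adjusted p = 0.00807).

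Klf6 (chromosome 13, 5861489 to 5870393), the early response and macrophage factor, had the largest difference of log2(FPKM + 1) of the 8 genes in MEP. It was at 2.75, 2.17 and 3.45 FPKM in Ctrl-MEP and 43.5, 15.7 and 38.5 in L-MEP. It was at 28.7, 26.5 and 23.3 FPKM in Ctrl-Bulk and 36.4, 27.0 and 65.6 in Prdm16s-Bulk. The 3 Ctrl-MEP libraries lay below the other 9, and L-MEP 2 was the lowest of those 9. Klf6 rose by 3.04 ± 0.38 in MEP (adjusted p = 0.000153), and by 2.86 without L-MEP 3 (adjusted p = 0.000296); it was called in all 20 alternative fits run, at 2.78 to 3.48. In marrow the ranges overlap and it was not called (0.60 ± 0.38, adjusted p = 0.372). The change in MEP exceeded that in marrow by 2.43 ± 0.54 (adjusted p = 0.0243, and 0.0218 without L-MEP 3). That difference lost its call in 9 of 19 alternative fits, those without L-MEP 1, Prdm16s-Bulk 1 or 2, or any 1 of the Ctrl-MEP or Ctrl-Bulk libraries (adjusted p = 0.0518 to 0.0812).

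Granulocyte markers were also called higher in L-MEP, where Klf6 was at 43.5, 15.7 and 38.5 FPKM. All 5 promyelocyte markers and 5 of 10 mature neutrophil markers were called higher in L-MEP, where 13.7% of all genes were called higher, with the same counts without L-MEP 3. All 15 were above 0 in each L-MEP library. The neutrophil sum was 17.8 to 294 FPKM in Ctrl-MEP, 506.5 and 1722 in L-MEP 1 and 2, 77940 in L-MEP 3 and 63500 to 100400 in the marrow libraries. Other lists moved in the same comparison. Of the megakaryocyte and platelet markers 6 of 7 were called higher and of the basophil and mast cell markers 4 of 5, while 6 of 8 red cell precursor markers were called lower. The part of these markers in the Klf6 values was not tested.

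Klf7 (chromosome 1, 64029448 to 64122345), known from neurons and progenitor cells, changed in opposite directions. It was at 2.32, 2.14 and 1.43 FPKM in Ctrl-MEP and 7.65, 7.99 and 10.5 in L-MEP. In Ctrl-Bulk it was at 8.29, 5.40 and 6.49 FPKM and in Prdm16s-Bulk at 2.96, 2.63 and 3.08. Neither pair of groups overlapped, and L-MEP 1 and 2 lay within the range of Ctrl-Bulk while L-MEP 3 lay above it. The Prdm16s-Bulk libraries lay just above those of Ctrl-MEP. Klf7 rose by 1.71 ± 0.26 in MEP (adjusted p = 0.000566) and by 1.59 without L-MEP 3 (adjusted p = 0.000915), and it was called in all 20 alternative fits run. It fell in marrow by 0.98 ± 0.26 (adjusted p = 0.0359). The marrow call was lost in 8 of 20 alternative fits, among them voom on recovered reads and those without Ctrl-MEP 2, any 1 of the Ctrl-Bulk libraries, or Prdm16s-Bulk 1 or 2 (adjusted p = 0.0540 to 0.160). The difference between the changes was 2.69 ± 0.37 (adjusted p = 0.00170), and it was called in all 19 alternative fits run.

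The Klf7 values rest on 11 to 150 reads in L-MEP, 18 to 38 in Ctrl-MEP, 88 to 109 in Ctrl-Bulk and 5 to 46 in Prdm16s-Bulk. In Prdm16s-Bulk 2, with 5 reads, 3 reads would be 1.58 FPKM. Annotated transcripts on the other strand, Gm26649 and Gm13748, overlap Klf7 exons and cannot be told apart from it here. Beside the marrow fall, 5 of 6 tested B cell markers were called lower in marrow, where 6.03% of all genes were. The sixth, Cd79b, was at 57.6, 75.0 and 63.5 FPKM in Ctrl-Bulk and 114, 76.0 and 60.3 in Prdm16s-Bulk. The summed level over the list of 7 was 132 to 157 FPKM in Ctrl-Bulk and 80.8 to 115 in Prdm16s-Bulk. Cd79b made up most of the Prdm16s-Bulk sums, and Pax5 and Ebf1 were at 0 in all 3 of these libraries. The monocyte sum given above was also lower in Prdm16s-Bulk. The part of these cells in the Klf7 fall was not tested.

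Klf10 (chromosome 15, 38291464 to 38300711), the early gene of the TGF-beta response, was at 30.5, 17.4 and 15.5 FPKM in Ctrl-MEP and 46.7, 36.3 and 29.4 in L-MEP, ranges that overlap between Ctrl-MEP 1 and L-MEP 3. It was at 29.0, 16 and 18.0 FPKM in Ctrl-Bulk and 38.1, 43.0 and 44.8 in Prdm16s-Bulk, where the ranges do not overlap. The first replicate was the highest in both control groups. Neither difference was called: 0.83 ± 0.29 in MEP (95% interval 0.19 to 1.48, adjusted p = 0.0550) and 1.01 ± 0.29 in marrow (95% interval 0.37 to 1.65, adjusted p = 0.0531). Both lie just past the threshold, and Klf10 was called higher in 7 of 20 alternative fits in MEP and 8 of 20 in marrow. Without L-MEP 3 it was called higher in both (adjusted p = 0.0298 and 0.0228), likewise without Ctrl-MEP 1 (adjusted p = 0.0191 and 0.0336) and without Ctrl-Bulk 1 (adjusted p = 0.0478 and 0.0440).

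Klf13 (chromosome 7, 63886351 to 63938915), known as an activator of Ccl5 in T cells and as a Sin3 repressor, was called neither in MEP nor in marrow. It was at 62.7, 73.8 and 82.8 FPKM in Ctrl-MEP and 74.3, 57.1 and 49.7 in L-MEP, ranges that overlap (-0.28 ± 0.21, 95% interval -0.74 to 0.18, adjusted p = 0.348). Without L-MEP 3 its difference was -0.15 (adjusted p = 0.638). In Ctrl-Bulk it was at 83.4, 88.1 and 102 FPKM and in Prdm16s-Bulk at 129, 113 and 154, without overlap but without a call (0.52 ± 0.21, 95% interval 0.06 to 0.98, adjusted p = 0.155). It was the most abundant of the 8 genes in Prdm16s-Bulk and the second in the other groups. Between the leukemic groups, Klf13 was lower in L-MEP than in Prdm16s-Bulk by -1.12 ± 0.21 (adjusted p = 0.0198), and with the libraries rescaled to equal totals by -0.69 (adjusted p = 0.0788), a setting that moves the median of all genes by 0.36 in this comparison. That call was also lost without L-MEP 2, Prdm16s-Bulk 1 or Prdm16s-Bulk 3 (adjusted p = 0.0519 to 0.0644).

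The order of the groups was set for each gene by mean level, with tests of neighbours that include 2 pairs added for this purpose, L-MEP against Ctrl-Bulk, and Ctrl-MEP against Prdm16s-Bulk. In L-MEP against Ctrl-Bulk none of the 8 was called, where 5.34% of all genes were called, 1.18% higher and 4.16% lower. In Ctrl-MEP against Prdm16s-Bulk Klf1 and Klf3 were called higher and Klf2, Klf6, Klf10 and Klf13 lower, where 37.1% of all genes were called, 17.6% higher and 19.6% lower. Klf6 ran from 43.0 ± 20.1 FPKM (SD, n = 3) in Prdm16s-Bulk over 32.6 ± 14.8 in L-MEP and 26.2 ± 2.71 in Ctrl-Bulk to 2.79 ± 0.639 in Ctrl-MEP, and of these steps the last was called (-2.85 ± 0.38, adjusted p = 0.000297). Klf7 ran from 8.70 ± 1.53 in L-MEP over 6.73 ± 1.46 in Ctrl-Bulk and 2.89 ± 0.233 in Prdm16s-Bulk to 1.96 ± 0.470 in Ctrl-MEP, with a call between Ctrl-Bulk and Prdm16s-Bulk. Klf1 ran from 699 ± 138 in Ctrl-MEP over 268 ± 88.3 in Ctrl-Bulk and 177 ± 122 in L-MEP to 35.7 ± 30.2 in Prdm16s-Bulk. None of its neighbouring steps was called (adjusted p = 0.198, 0.555 and 0.0955), but the first step was called without L-MEP 3 (adjusted p = 0.0444), as was the last (3.07, adjusted p = 0.00131). For Klf2, Klf3, Klf4, Klf10 and Klf13 no neighbours in the order were called.

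In normal cells, 3 of the 8 genes were called lower in Ctrl-MEP than in Ctrl-Bulk, Klf4, Klf6 and Klf7, where 12.3% of all genes were called in that direction and 15.0% in either. Klf4 was lower by -1.77 ± 0.48 (adjusted p = 0.0275) and Klf7 by -1.38 ± 0.26 (adjusted p = 0.00304). The Klf4 call was lost without any 1 of the Ctrl-MEP or Ctrl-Bulk libraries (adjusted p = 0.0520 to 0.128). Without L-MEP 3, 5 of the 8 were called, with Klf2 lower (adjusted p = 0.00902) and Klf1 higher in addition. Between the leukemic groups, L-MEP against Prdm16s-Bulk, 2 of the 8 were called, where 3.05% of all genes were called: Klf7 was higher in L-MEP (1.31 ± 0.26, adjusted p = 0.0234) and Klf13 lower. The Klf7 call was lost without L-MEP 1, L-MEP 2, Prdm16s-Bulk 1 or Prdm16s-Bulk 2 (adjusted p = 0.0598 to 0.0800). A limma fit of these 6 libraries alone called 0 of 10565 genes, with 1108 genes at an unadjusted p under 0.05 (voom with all groups called 1780), and there the adjusted p was 0.299 for Klf7 and 0.289 for Klf13.

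Of the other 18 Kruppel-like and Sp factors, 9 passed the filter. In MEP 2 of these 9, Klf5 and Klf8, rose and none was called lower, where 13.7% of all genes were called higher and 12.3% lower. The median was 0.19, beside 0.02 for all genes, and without L-MEP 3 the count called higher was 1. In marrow 1 of the 9 was called higher and none lower, where 3.02% of all genes were called higher. Klf5, an activator known from epithelia and from granulocyte maturation, was at 0.300, 0.451 and 0.234 FPKM in Ctrl-MEP and 5.12, 2.08 and 7.48 in L-MEP (2.04 ± 0.39, adjusted p = 0.00268). It also rose in marrow, from 1.5, 1.39 and 2.45 FPKM to 10.1, 4.14 and 7.05 (1.49 ± 0.39, adjusted p = 0.0340), with no overlap in either comparison. With rescaled totals its marrow adjusted p was 0.0512. Klf8, a CtBP-dependent repressor whose gene is activated by Klf1, was at 0.419, 0.111 and 0.0287 FPKM in Ctrl-MEP and 1.35, 3.12 and 4.47 in L-MEP, where Klf1 was lower (1.68 ± 0.50, adjusted p = 0.0281; 1.40 without L-MEP 3, adjusted p = 0.0689). Klf9, Klf11, Klf16, Sp1, Sp2, Sp3 and Sp4 were not called in MEP or marrow. The general activator Sp3 was the most abundant of them in marrow, at 24.7 and 25.8 mean FPKM.

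The genes most like each factor were sought over the 12 libraries by Pearson r of log2(FPKM + 1) among 6570 genes with a mean of at least 10 FPKM in their highest group. The libraries share groups and depth, so these values are descriptions. Only for Klf1 was the order among the 3 genes named kept both with a pseudocount of 0.1 and without L-MEP 3. Klf1 was most like Tspo2 (r = 0.992), Slc43a1 (0.986) and Blvrb (0.973), Tspo2 being a cholesterol and porphyrin carrier of red cell precursors and Blvrb a reductase of red cells. Klf6 was most like Iqgap1 (0.969), a scaffold of the actin cortex, Traf3ip3 (0.967) and Arpc1b (0.967), a subunit of the actin-branching Arp2/3 complex. Klf3 followed Ipo5 (0.949), Atg4b (0.948) and Msh6 (0.944), which encode a nuclear importer, an autophagy protease and a mismatch repair protein. Klf7 followed Slc2a3 (0.948), a glucose transporter, Ubash3b (0.907) and Smox (0.903).

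Klf2 was most like Mfsd13a (0.926), Hlx (0.924) and Bcl6 (0.924), the latter a repressor of lymphoid and myeloid cells, and Klf4 was most like Phkg2 (0.899), Rgs2 (0.886) and Zfp36 (0.880), the last an early response gene that destabilizes mRNA. Klf10 followed Kdsr (0.912), Gpbp1l1 (0.898) and Pafah2 (0.891), and Klf13 followed Ift22 (0.882), Mdh1 (0.866) and Pde6d (0.859). Among the 8 genes themselves the closest pair was Klf2 and Klf4 (r = 0.856, 0.832 without L-MEP 3), and Klf3 and Klf6 ran most opposite (-0.826, -0.851 without L-MEP 3). Klf7 and Klf1 showed little relation (-0.152).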

How the data were processed

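The deposited table holds FPKM values that the authors computed for each gene and library. Per the submitters' processing notes, the tools were CASAVA, bcl2fastq, STAR 2.5.3a and DESeq2 1.18.1 with mm10; the counter and gene annotation are unstated there. Per the labels' protocols, sorted cells gave Smart-seq2 cDNA and Nextera XT libraries, run on a HiSeq2500. Whole reads were recovered for all 16728 genes above 0 (tolerance 0.02), whose totals differ 17.0-fold between libraries, with library denominators proportional to median-of-ratios size factors. The recovered reads were used for depth and for voom as an alternative.

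The test was limma-trend on log2(FPKM + 1) over 11462 genes (minimum FPKM of 1, reached in 3 or more libraries), 4 groups in 1 fit (8 residual degrees of freedom), called at a Benjamini-Hochberg adjusted p under 0.05; it was tested on simulated data first. An exact permutation test of 3 against 3 libraries, 2-sided, cannot go below 0.1. The members and lists were chosen with earlier results of these data known. A result of the Klf2 target list, and with it that list's counts and medians, is not reported here. Named genes are the 8 members, other tested Kruppel-like and Sp genes, up to 3 called genes of each list and direction with the smallest p, and the 3 genes most like each member. Uncalled list genes, Map3k2, E2f2, Wwp1, Mpo, Xist, Ddx3y and single markers lie outside this rule and were named after their values were seen. Alternatives were another pseudocount, no filter, array weights, equal totals, quantile normalization, voom, a replicate block, 2-group fits and each library left out; list counts without L-MEP 3 and list genes under other scalings were added after seeing the data. Sequences and positions are from RefSeq (GRCm38.p6), with exons of GENCODE vM21. Software was R 4.3.3, limma 3.58.1, Python 3.11.15, numpy 2.4.6, pandas 2.3.3 and matplotlib 3.10.9.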

Additional observations from a re-analysis of the deposited data

Results flagged for a closer look

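The log2 change in MEP differed from that in marrow, by the test of the difference itself (limma interaction term), for 2 of the Kruppel-like factors. For Klf6 the difference was 2.43 (adjusted p = 0.0243; 3.04 in MEP and 0.60 in marrow), and for Klf7 it was 2.69 (adjusted p = 0.00170; 1.71 in MEP and -0.98 in marrow).

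Among the listed partners and targets, the same test gave 3.28 for Mef2c (adjusted p = 0.0274; 3.50 in MEP and 0.22 in marrow) and 3.21 for Fli1 (adjusted p = 0.000964; 4.22 and 1.01). Of the red cell genes known as Klf1 targets it gave 8.16 for Hbb-bs (adjusted p = 0.00885; 4.18 and -3.98), 4.09 for Alas2 (adjusted p = 0.000256; -0.46 and -4.55), 3.99 for Slc4a1 (adjusted p = 0.000227; -0.03 and -4.02) and 1.99 for E2f2 (adjusted p = 0.0240; 0.88 and -1.10). In Ctrl-MEP Slc4a1 was at 0, 0.296 and 0.0614 FPKM and Alas2 at 1.19, 2.38 and 1.41. Neither could fall in MEP by as much as it fell in marrow, whatever the response. With quantile normalization Mef2c and E2f2 were not called (2.97 and 1.60, adjusted p = 0.0594 and 0.0603).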

How the results depend on the processing

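The calls of Klf6 and Klf7 in MEP and in Ctrl-MEP minus Ctrl-Bulk, and of Klf7 in the difference of changes, held in all alternatives run. Each other call of the 8 genes in the 5 planned comparisons was lost in 2 or more of them, and the cause was not tested. The count of the 8 genes called in MEP (4) was 2 without the filter, 7 with array weights, 6 with voom and 5 each with a pseudocount of 0.1 and quantile normalization, and 2 to 5 when 1 library was left out. In marrow (2) it was 4 with array weights and 0 to 3 with 1 library left out, and for the difference of changes (2) it was 6 and 1 to 3. For Ctrl-MEP minus Ctrl-Bulk (3) it was 6 with array weights, 5 with voom, 5 with the groups compared alone and 2 to 5 with 1 library left out. For L-MEP minus Prdm16s-Bulk (2) it was 0 with the groups compared alone and 0 to 3 with 1 library left out. Signs reversed for differences that were not called. Klf2 in marrow was -0.11 with array weights and -0.0704 to 0.57 with 1 library left out. Klf10 in the difference of changes was 0.34 with array weights, 0.0873 with equal totals and -0.42 to 0.11 with 1 library left out; in Ctrl-MEP minus Ctrl-Bulk it was 0.16 with equal totals, 0.0681 with quantile normalization, 0.0134 with voom and -0.29 to 0.24 with 1 library left out; in L-MEP minus Prdm16s-Bulk it was 0.18 with array weights and 0.25 with equal totals. In that comparison Klf3 was -0.33 with array weights, Klf4 -0.63 with a pseudocount of 0.1, -1.87 with voom and -0.40 to 0.65 with 1 library left out, and Klf6 0.12 with array weights, 0.00942 with equal totals and -0.70 to 0.0253 with 1 library left out. Equal totals moved the median of all genes by -0.20 in marrow, 0.15 in Ctrl-MEP minus Ctrl-Bulk, 0.21 in the difference of changes and 0.36 in L-MEP minus Prdm16s-Bulk, and quantile normalization by -0.12 in MEP, -0.18 in the difference and 0.23 in Ctrl-MEP minus Ctrl-Bulk. No called gene of the 8 changed sign. Same-numbered libraries did not deviate together between genotypes (r = -0.157 to -0.0521 in MEP and -0.0619 to 0.0204 in marrow). Within a genotype r was 0.0734 to 0.497 in Ctrl-MEP and Ctrl-Bulk, where replicates 1 and 2 were closest to their own number. It was 0.0862 to 0.215 in L-MEP and Prdm16s-Bulk, where each library was closest to its own number. Same-numbered libraries of L-MEP and Prdm16s-Bulk also read as the same sex, female for replicates 1 and 2 and male for replicate 3. The numbers were not taken as pairs in the main test. Whether libraries of 1 genotype are paired by number was not tested. The replicate block that was fitted shares each number over all 4 groups. It called 4 of the 8 genes in MEP, 2 for marrow and 2 for the difference. It called 3 for Ctrl-MEP minus Ctrl-Bulk and 2 for L-MEP minus Prdm16s-Bulk. These were not always the same genes: with the block Klf3 was not called in MEP (adjusted p = 0.0613) nor Klf7 in marrow (0.0598), and Klf10 was called in both (0.0368 and 0.0374). Klf2 and Klf4 rest on 0 to 19 and 0 to 69 reads in MEP, and the 0.572 M reads of L-MEP 3 limit its values of all low genes. The fit of the groups compared alone has no value for the difference of changes, which needs all 4 groups.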
